A study of Mus musculus with 21 samples.

Results

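The 40 genes described here encode proteins of ribosome biogenesis and of RNA polymerase I, and they were taken from a fixed list of gene symbols. Of these, 39 had a probeset named for that gene alone and all 39 lay above the filter on dim genes, among 13956 genes tested of 19938 measured. Noc2l was not analysed here. Expression was read on Affymetrix Mouse Gene 1.0 ST arrays in mouse muscle stem cells (satellite cells) sorted as YFP-positive cells from hindlimb muscle and lysed without culture. The study's question was how a distant injury shifts these quiescent cells into an alert state, and whether the shift needs the kinase complex mTORC1 and the receptor cMet.

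There were 8 groups, 12 pools of 3 to 4 mice and 21 arrays. All mice were 3 to 5 months old and carried Pax7CreER/+ with Rosa26REYFP/+, controls included, so that recombination and the YFP tracer were limited to cells that expressed Pax7 when tamoxifen was given, at least 2 weeks before the sort. Quiescent satellite cells (QSC) came from noninjured mice. Contralateral satellite cells (CSC) came from the limb opposite to a BaCl2 injury, taken after 2.5 days unless 28 days is stated. Wild-type mice (WT, mixed C57BL6) gave 3 QSC pools, 3 CSC pools and 1 CSC pool at 28 days. TSC1flox/flox mice (mixed C57BL6) gave 1 QSC pool, and Rptrflox/flox mice (mixed C57BL6) gave 1 QSC pool and 1 CSC pool. cMetflox/flox mice, of the strain C57BL6 mixed FVB, also gave 1 QSC pool and 1 CSC pool, so that strain and genotype cannot be told apart there. TSC1 holds mTORC1 back, and raptor, the product of Rptor, is a subunit that mTORC1 needs.

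Ribosomes are built in the nucleolus. RNA polymerase I copies the ribosomal DNA into a long precursor RNA, small nucleolar ribonucleoproteins (snoRNPs) modify it, and a series of large assemblies cut and fold it while ribosomal proteins are added, until the small (40S) and large (60S) subunits leave the nucleus. The load of this work follows growth: mTORC1 and Myc are the best known activators of polymerase I and of the genes of ribosome biogenesis. Quiescent satellite cells are small cells with little cytoplasm, and building ribosomes is part of their growth before they divide.

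All values are log2 signals, in which a difference of 1 is a doubling. Differences are given with the standard error (SE) from limma, and a gene is called where its p, adjusted over all 13956 genes by the Benjamini-Hochberg method, is under 0.05. Where a group is 1 pool, no replicates check its values: the test takes the spread from the WT pools, and what belongs to that pool cannot be told apart from what belongs to its genotype or time. In pooled cells, fewer cells of a type and less RNA per cell cannot be told apart. Array medians ran from 7.03 to 7.21, and the satellite cell gene Pax7 stood at 10.26 to 12.10 in the 12 pools. The deleted genes did not check the genotype labels: Tsc1 differed by -0.40 ± 0.24 (SE) between TSC1 KO and WT QSC (adjusted p = 0.641), Rptor by -0.07 ± 0.27 between Rptor KO and WT QSC (adjusted p = 0.961) and by -0.73 ± 0.27 between Rptor KO and WT CSC (adjusted p = 0.18), and Met by 0.24 ± 0.19 between cMet KO and WT QSC (adjusted p = 1) and by -0.68 ± 0.19 between cMet KO and WT CSC (adjusted p = 0.0662), all in limma, on probesets that may lie partly outside the deleted exons. The positions of the pools were mixed. Tsc1 in TSC1 KO QSC (8.16) and Rptor in Rptor KO CSC (8.85) were the lowest of the 12 pools. Rptor in Rptor KO QSC (9.19) lay among the WT QSC pools (8.91 to 9.58). Met in cMet KO CSC (10.13) lay below the 3 WT CSC pools (10.63 to 10.94). In cMet KO QSC, at 10.25, Met stood above the 3 WT QSC pools (9.93 to 10.11), which runs against the label. The knockout pools are named by their labels throughout. The 2 arrays of a pool correlated at 0.957 to 0.996, lowest in WT CSC pool 1, Rptor KO QSC and Rptor KO CSC.

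Ribosome biogenesis genes were higher in WT stem cells opposite an injury at 2.5 days than in those of noninjured mice. Of the 39 genes, 11 rose and none fell, 36 had a positive difference, and the median difference was 0.53. Across all genes tested, 18% were called in either direction, 10.6% were called higher, and the median was -0.05. The 11 genes were Bop1, Wdr12 and Pes1 of large subunit processing, Nhp2, Dkc1 and Nop10 of the box H/ACA snoRNPs, Polr1e and Taf1d of polymerase I transcription, Utp20 of the small subunit processome, and Ebna1bp2 and Noc3l of large subunit assembly. By role, the calls were 3 of 3 in the PeBoW complex, 3 of 4 in the box H/ACA snoRNP, 2 of 6 in the polymerase I group, 2 of 7 in large subunit assembly, 1 of 8 in the processome, and none of 4 nucleolar scaffold, 3 box C/D and 4 small subunit maturation genes. At an unadjusted p under 0.05 in limma there were 25 genes, beside 4466 of all 13956 genes. With 1 WT pool left out the count ran from 4 (without CSC pool 2) to 19 (without QSC pool 3, where 18.8% of all genes were called). Without CSC pool 1, 2 or 3 the share of all genes called was 9.29%, 9.24% and 8.56%. The median of the 39 was then 0.60, 0.46 and 0.53. Bop1, Wdr12, Dkc1 and Utp20 were called under all 20 alternatives run. Not all of these could change a call. The fit of the 6 WT pools alone repeats the main fit, and other probeset choices leave the difference of a gene with 1 probeset as it is. Just inside the threshold were Ebna1bp2 (adjusted p = 0.0439) and Noc3l (0.0452), and just outside were Polr1b (0.0503), Mybbp1a (0.0631) and Ftsj3 (0.0664), by limma. The groups did not overlap for 19 genes: all 3 CSC pools lay above all 3 QSC pools for 18 (46.2%, against 18.7% of all genes) and below them for 1 (2.56%, against 19.1%).

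**Figure D1:**
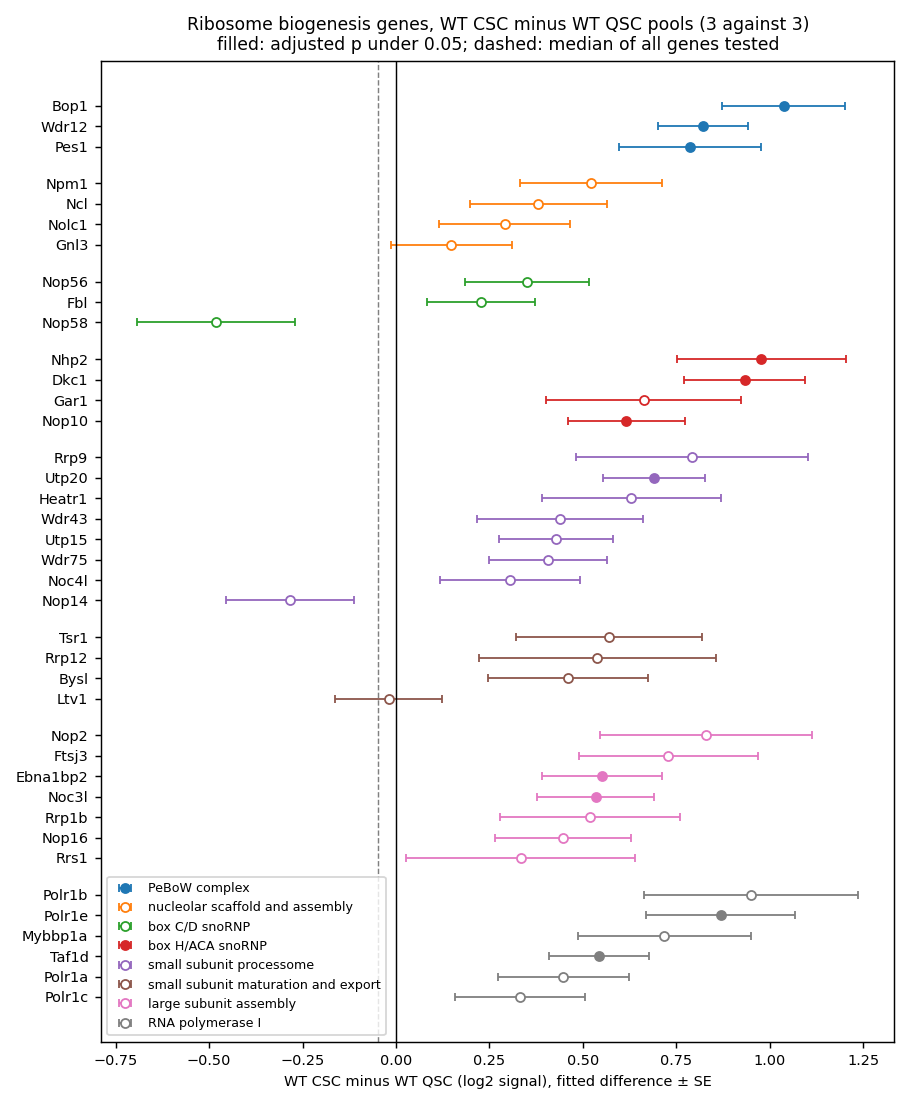
Fitted difference (log2 signal) between 3 WT CSC and 3 WT QSC pools for each of 39 genes, grouped by role; points are differences, bars are SE, filled points passed the adjusted threshold, and the dashed line is the median of all genes tested (-0.05). The PeBoW and box H/ACA genes lie at 0.62 to 1.04, and 3 genes (Nop58, Nop14 and Ltv1) lie below 0.

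The PeBoW complex (Pes1, Bop1 and Wdr12) is needed to process the precursor of the large subunit RNAs, and all of its genes rose. Bop1 stood at 9.45, 9.16 and 9.74 in WT QSC pools 1 to 3 and at 10.53, 10.54 and 10.39 in the CSC pools. It rose 2.05-fold (1.04 ± 0.16 SE, adjusted p = 0.00366 in limma, n = 3 pools against 3). Wdr12 stood at 8.33, 8.44 and 8.48 in QSC and at 9.16, 9.27 and 9.28 in CSC. Its rise was 1.77-fold (0.82 ± 0.12, adjusted p = 0.00273), the smallest p of the 39 genes, and its fainter second probeset differed by 0.77. For Pes1 the QSC pools were at 8.95, 8.63 and 9.37 and the CSC pools at 9.67, 9.91 and 9.72, a 1.73-fold rise (0.79 ± 0.19, adjusted p = 0.0224). In each of these genes every CSC pool lay above every QSC pool, by a wide margin in Bop1 and Wdr12 and a narrow one in Pes1. The call of Pes1 was lost without any single one of the CSC pools (adjusted p = 0.0576 to 0.0917).

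The box H/ACA snoRNPs turn chosen uridines of ribosomal RNA into pseudouridine, and their core is also part of telomerase. Dkc1, the pseudouridine synthase, stood at 9.01, 8.47 and 8.83 in WT QSC and at 9.58, 9.78 and 9.75 in WT CSC, a 1.91-fold rise (0.93 ± 0.16 SE, adjusted p = 0.00555 in limma, n = 3 against 3). Nhp2, a core protein that binds the guide RNA, was at 8.72, 8.81 and 9.53 in QSC and at 9.72, 10.15 and 10.12 in CSC. It rose 1.97-fold (0.98 ± 0.23, adjusted p = 0.0189), with QSC pool 3 close to the lowest CSC pool, and its call was lost without CSC pool 2 or 3 (adjusted p = 0.0771 and 0.0755). Nop10, the smallest core protein, was at 9.53, 10.01 and 9.71 in QSC and at 10.29, 10.30 and 10.52 in CSC, a 1.53-fold rise (0.62 ± 0.16, adjusted p = 0.0269). Leaving out any WT pool but QSC pool 2 ended this call (adjusted p = 0.0564 to 0.115). Gar1, the remaining core protein, differed by 0.66 ± 0.26 (adjusted p = 0.114) and overlapped: QSC pool 3 was at 9.69, above the CSC pool at 9.59, while QSC pools 1 and 2 were at 8.92 and 8.51.

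Among the polymerase I genes, Polr1e, a subunit that helps the enzyme start and elongate, was at 7.90, 7.44 and 8.24 in WT QSC and at 8.80, 8.80 and 8.59 in WT CSC. It rose 1.83-fold (0.87 ± 0.20 SE, adjusted p = 0.0181 in limma, n = 3 against 3), and the call was lost without CSC pool 1 or 2 (adjusted p = 0.0669 and 0.0716). Polr1b, the second largest subunit, was at 9.42, 8.55 and 9.87 in QSC and at 10.14, 10.40 and 10.14 in CSC. Its difference of 0.95 ± 0.29 was larger than that of Polr1e but so was its spread, and it stood just outside the threshold (adjusted p = 0.0503, 0.0123 without QSC pool 3). The largest subunit, Polr1a, was at 9.56, 8.95 and 9.44 in QSC and at 9.88, 9.77 and 9.64 in CSC (0.45 ± 0.18, adjusted p = 0.113). Polr1c, which polymerase III shares, was at 9.77, 9.92 and 10.16 in QSC and at 9.96, 10.41 and 10.48 in CSC, groups that overlap (0.33 ± 0.17, adjusted p = 0.227). Mybbp1a, a nucleolar protein that binds Myb and takes part in early processing of the precursor, was at 10.38, 9.73 and 10.66 in QSC and at 10.73, 11.15 and 11.05 in CSC (0.72 ± 0.23, adjusted p = 0.0631). QSC pool 2 was the lowest of the 12 pools for Polr1a, Polr1b, Polr1e and Mybbp1a.

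Taf1d, a subunit of the selectivity factor that brings polymerase I to the ribosomal DNA promoter, rose on its brightest probeset. That probeset was at 11.30, 11.03 and 11.27 in WT QSC and at 11.67, 11.85 and 11.72 in WT CSC (1.46-fold, 0.54 ± 0.13 SE, adjusted p = 0.0238 in limma, n = 3 against 3), and its call was lost without any one of the CSC pools (adjusted p = 0.0563 to 0.108). The platform annotation names 9 probesets for Taf1d, and they do not move together. The 1 probeset that lists a RefSeq mRNA was at 9.60, 10.14 and 10.36 in QSC and at 9.84, 10.64 and 10.43 in CSC, groups that overlap, with a difference of 0.27 (adjusted p = 0.50). The brightest one lists no RefSeq mRNA. The differences of the 9 probesets ran from -0.23 to 0.97, and 4 of them hold the same values in every pool. Introns of this gene carry small nucleolar RNAs, and which transcript each probeset reads is not given in the sources used here. The rise of Taf1d mRNA is therefore uncertain, and without it 10 genes were called.

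**Figure D2:**
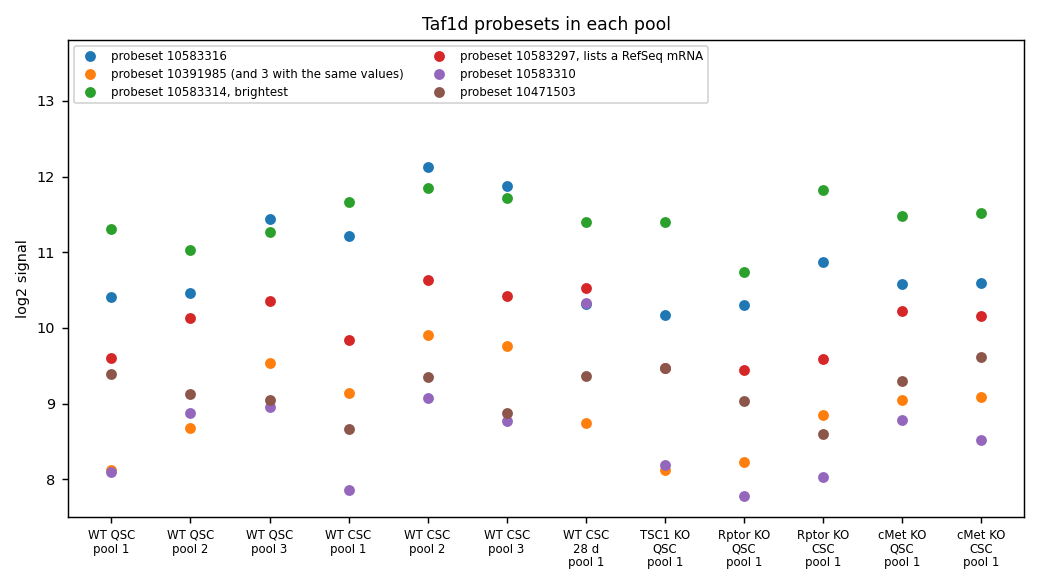
Log2 signal of the Taf1d probesets in each of the 12 pools; the 4 probesets with the same values are drawn once. The brightest probeset is higher in the 3 WT CSC pools (11.67 to 11.85) than in the 3 WT QSC pools (11.03 to 11.30), whereas the one that lists a RefSeq mRNA overlaps between them.

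In large subunit assembly, Ebna1bp2, a partner of the early 60S particle, was at 8.56, 8.37 and 8.89 in WT QSC and at 9.07, 9.30 and 9.11 in WT CSC (1.47-fold, 0.55 ± 0.16 SE, adjusted p = 0.0439 in limma, n = 3 against 3). Noc3l, which acts with Noc2l in the movement of that particle through the nucleus, was at 9.02, 8.92 and 9.36 in QSC and at 9.46, 9.77 and 9.67 in CSC (1.45-fold, 0.53 ± 0.16, adjusted p = 0.0452). Both calls stood at the edge: each was lost without any WT pool but QSC pool 3 (adjusted p = 0.0877 to 0.163 for Ebna1bp2 and 0.0622 to 0.167 for Noc3l). Nop2, a methyltransferase of the large subunit RNA, differed more (0.83 ± 0.28) but its QSC pools were far apart, at 9.67, 8.62 and 9.66 against 9.81, 10.39 and 10.23 in CSC, and it did not pass (adjusted p = 0.0752). Ftsj3, another RNA methyltransferase, differed by 0.73 ± 0.24 and did not pass either (adjusted p = 0.0664, 0.0088 without QSC pool 3). The differences of Nop16, Rrp1b and Rrs1 were 0.45, 0.52 and 0.33, also without passing.

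In the small subunit processome, the assembly that makes the first cuts in the precursor, Utp20 was at 8.94, 8.59 and 8.85 in WT QSC and at 9.57, 9.44 and 9.44 in WT CSC. It rose 1.61-fold (0.69 ± 0.14 SE, adjusted p = 0.00994 in limma, n = 3 against 3) with no overlap. Of the other 7 processome genes, Rrp9 (0.79 ± 0.31), Heatr1 (0.63 ± 0.24), Wdr43 (0.44 ± 0.22), Utp15 (0.43 ± 0.15), Wdr75 (0.41 ± 0.16) and Noc4l (0.31 ± 0.19) had positive differences and did not pass. Rrp9, a protein of the U3 snoRNP, had the widest spread among them, with QSC pools at 8.90, 8.09 and 9.51 and CSC pools at 9.42, 9.89 and 9.57. Nop14 differed the other way: it was at 10.28, 10.19 and 10.03 in QSC and at 9.57, 10.18 and 9.90 in CSC (-0.28 ± 0.17, adjusted p = 0.296). For the later steps and export of the small subunit, Tsr1 was at 9.26, 9.10 and 10.01 in QSC and at 9.68, 10.24 and 10.16 in CSC (0.57 ± 0.25, adjusted p = 0.152). Rrp12 and Bysl differed by 0.54 and 0.46, and Ltv1, an adaptor of 40S export, by -0.02 ± 0.14, none of them passing.

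The box C/D snoRNPs, which guide methylation of ribosomal RNA, did not move as one. Nop58 was the only gene of the 39 with all 3 CSC pools (10.32, 11.07 and 11.01) below all 3 QSC pools (11.11, 11.51 and 11.23), a difference of -0.48 ± 0.21 (SE, adjusted p = 0.153 in limma), while its partner Nop56 and the methyltransferase Fbl differed by 0.35 ± 0.16 and 0.23 ± 0.14. The low CSC pool rests partly on 1 array: the arrays of WT CSC pool 1 read 10.75 and 9.90 for Nop58. Of the nucleolar scaffold genes, Npm1 (nucleophosmin) was at 10.68, 11.44 and 11.06 in QSC and at 11.48, 11.70 and 11.57 in CSC (0.52 ± 0.19, adjusted p = 0.0922). Leaving out the second array of the 3 pools whose arrays correlated least, an alternative chosen after seeing the data, brought Npm1 under the threshold (0.66, adjusted p = 0.0471). Ncl (nucleolin), Nolc1 and Gnl3 differed by 0.38, 0.29 and 0.15 and did not pass.

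**Figure D3:**
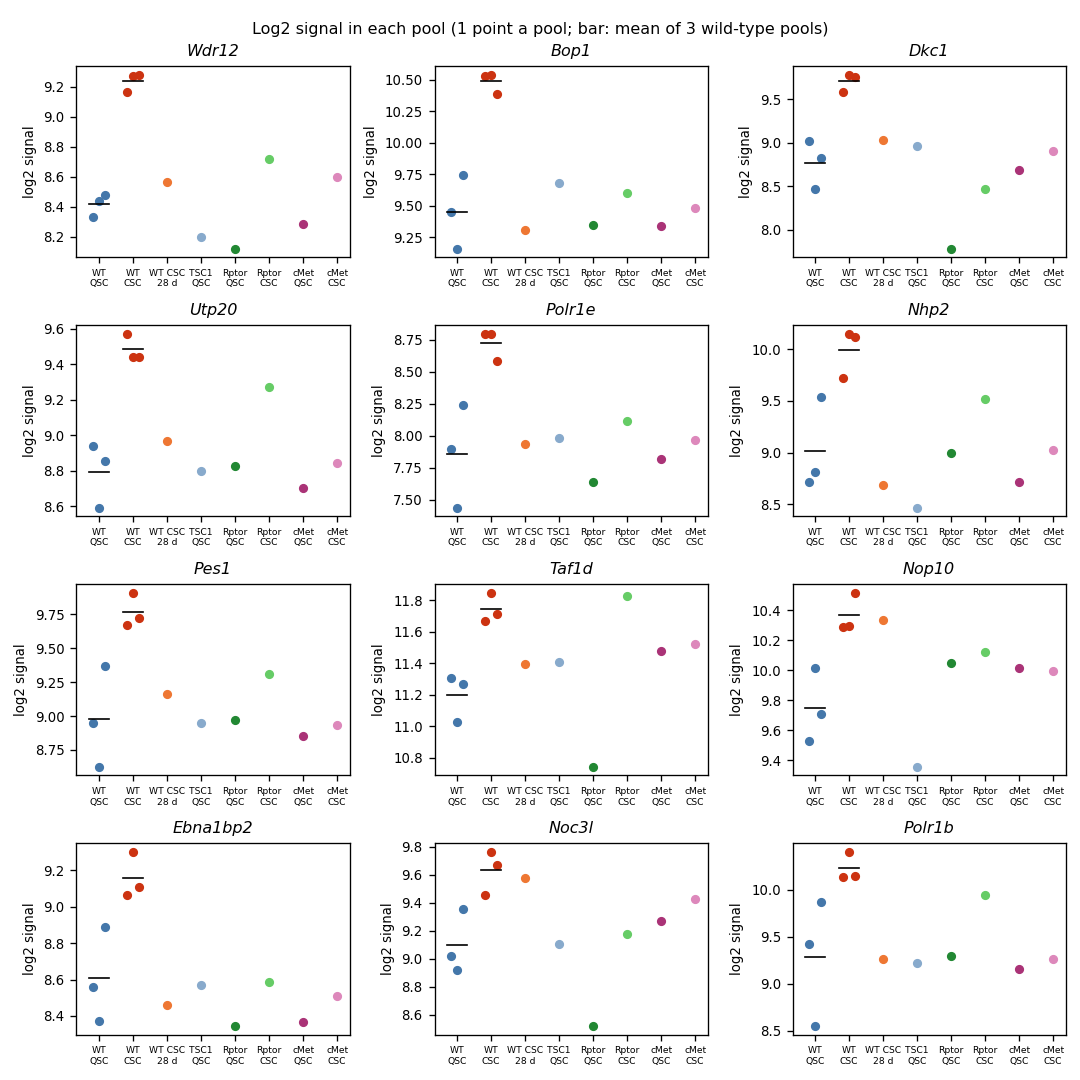
Log2 signal in each pool for the 12 genes with the smallest p between WT CSC and WT QSC; each point is 1 pool and the bars are means of the 3 WT pools. Bop1 and Wdr12 show the widest gap between WT groups. In all of these genes but Taf1d, Nop10 and Noc3l the 6 single pools lie below the 3 WT CSC pools. Picking genes by this p largely builds in high WT CSC values. Of all genes, 30.4% to 38.3% lay below the 3 WT CSC pools in a given single pool.

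The median SD of the 39 genes was larger than that of all genes. It was 0.314 among the WT QSC pools and 0.157 among the WT CSC pools, against 0.207 and 0.131 for all genes, and 34 of 39 varied more in QSC (70% of all genes did). QSC pool 2 held the lowest value for 25 genes and QSC pool 3 the highest for 26 (50.4% and 28.9% of all genes). In the CSC groups, pool 2 was the highest for 31 and pool 1 the lowest for 30 (26.5% and 31.3% of all genes). Relative to each gene's mean over the 12 pools, the median of the 39 was -0.16, -0.41 and 0.14 in QSC pools 1 to 3 and 0.27, 0.52 and 0.42 in the CSC pools, so the medians did not overlap between the groups.

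To show what the genes share in sequence, promoter windows from 250 bases before to 50 bases after the transcription start (RefSeq, GRCm38.p6) were searched on both strands; 35 of the 40 genes had a window. The E-box CACGTG, the site bound by Myc with Max, was found in 7 of 35 (20%), against 8.09% of 27025 genes in the table, and lay before the start in Nop2 and after it in the other 6. The ETS motif CCGGAAGT was found in 9 of 35 (25.7%), against 4.31%. No E-box overlapped an ETS motif. Genes with the E-box were Ltv1, Mybbp1a, Nop2, Pes1, Tsr1, Utp20 and Wdr43. Those with the ETS motif were Ebna1bp2, Gar1, Heatr1, Ltv1, Nhp2, Noc2l, Polr1c, Polr1e and Tsr1. A match is only a run of letters, and binding was not measured. The stretches of the 6 genes that have a motif lying wholly before the start show what was matched. They are written 5′ to 3′ on the gene's strand with the motif, or its reverse complement, in capitals.
Nop2 (chr6:125131796-125131855, plus strand, E-box): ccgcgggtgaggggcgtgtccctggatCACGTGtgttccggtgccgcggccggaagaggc
Nhp2 (chr11:51619723-51619772, plus strand, ETS): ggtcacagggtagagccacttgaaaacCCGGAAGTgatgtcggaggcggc
Heatr1 (chr13:12395332-12395374, plus strand, ETS): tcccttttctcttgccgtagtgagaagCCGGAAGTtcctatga
Polr1c (chr17:46248053-46248114, minus strand, ETS): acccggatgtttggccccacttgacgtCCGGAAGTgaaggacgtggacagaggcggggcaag
Gar1 (chr3:129831406-129831467, minus strand, ETS): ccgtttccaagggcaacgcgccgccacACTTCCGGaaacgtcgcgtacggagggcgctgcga
Ltv1 (chr10:13193201-13193262, minus strand, ETS): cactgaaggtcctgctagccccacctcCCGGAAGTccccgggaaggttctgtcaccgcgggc
Ltv1 (chr10:13193159-13193220, minus strand, ETS): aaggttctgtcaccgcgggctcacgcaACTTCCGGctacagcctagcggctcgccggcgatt
Of these 6 genes, Nhp2 was called between WT CSC and QSC. Ltv1, which has 2 ETS motifs before the start, differed by -0.02, and the other 4 by 0.33 to 0.83 without being called.

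Other genes of ribosome biogenesis, from lists outside the 40, were also higher in WT CSC. Of 134 tested, 37 rose and none fell, with a median difference of 0.38. Of all genes tested, 10.6% were called higher and 18% in either direction. Pno1, which acts on the small subunit, differed by 1.48, Exosc8 of the RNA exosome by 1.13, Wdr18 of late 60S maturation by 1.20, Ruvbl2 of snoRNP assembly by 1.23 and Polr2f, a subunit shared by all 3 nuclear polymerases, by 1.12, all called in limma. The RNA exosome, which trims the precursor, gave 8 of 13 genes higher. The other large subunit genes gave 13 of 51, the other small subunit genes 11 of 43 and the other snoRNP genes 3 of 9. The other polymerase I genes gave 2 of 18, near the share of all genes. Polymerase III genes gave 4 of 19, with Polr3g at a difference of 1.26. Of 80 listed genes for structural proteins of the cytosolic ribosome, 55 were tested and none was called. Their median was -0.02, and 2 had an unadjusted p under 0.05 (4466 of all 13956 genes did). Many of them are bright: WT QSC means ran from 8.09 (Rplp2) to 13.58 (Rplp0), where the highest value on the arrays was 14.54. Whether such high signals hide differences was not tested. Of the regulators, Myc itself, also bright (WT QSC mean 12.82), differed by -0.23 ± 0.16 (adjusted p = 0.364 in limma). Ubtf, the upstream binding factor of polymerase I, differed by 0.43 ± 0.13 (adjusted p = 0.0502). Rrn3, the initiation factor through which mTORC1 acts on polymerase I, differed by 0.24 ± 0.12 (adjusted p = 0.202). None of 10 Myc network genes was called, a small list beside the 18% of all genes.

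The genes whose profile over the 12 pools was most like the mean profile of the 39 were Mrto4 (Pearson r = 0.970), Ddx18 (0.969), Yars2 (0.963), Zpr1 (0.962) and Cdk7 (0.962), given as a description over 12 pools that share their groups. Mrto4 and Ddx18 belong to the large subunit list, where they differed by 0.87 and 0.97 between WT CSC and QSC.

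Markers of other cell types and of satellite cells themselves moved in the same pools. Of all 13956 genes, 1027 were called lower and 1483 higher in WT CSC than in WT QSC. In WT CSC against WT QSC, 8 of 12 endothelial markers were lower (median -1.13), 6 of 10 pericyte and smooth muscle markers (-0.84), 5 of 11 fibro-adipogenic markers (-0.66) and 5 of 12 satellite cell markers (-0.59), while 3 of 9 mature fibre markers were higher (0.42) and no macrophage marker was called (median 0.00). Relative to the 12-pool means, the endothelial median ran from -0.07 to 0.69 in QSC pools and from -0.93 to -0.59 in CSC pools. The part of these markers in the rise of the ribosome biogenesis genes was not tested.

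**Figure D4:**
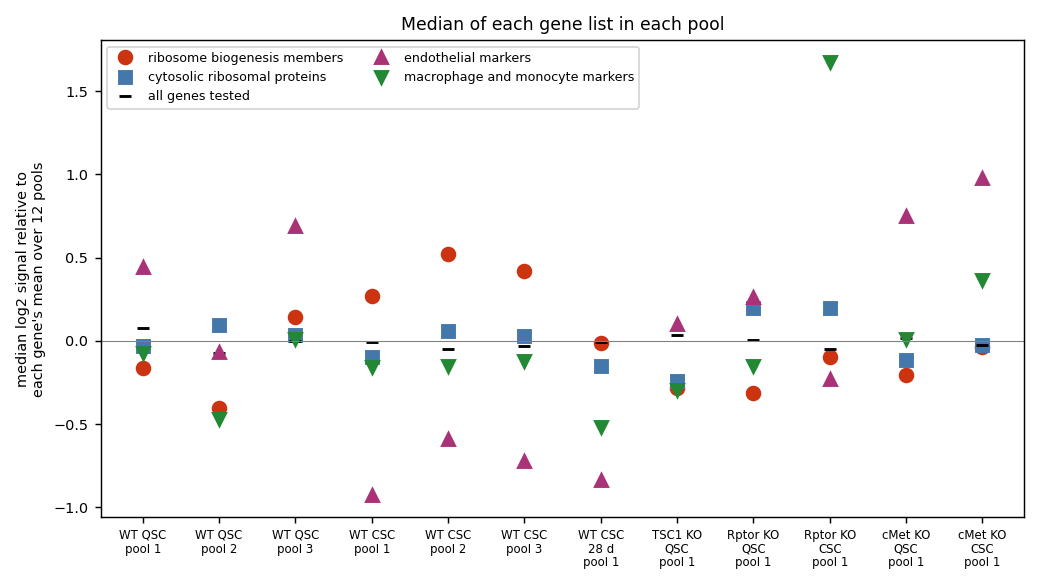
Median log2 signal of each gene list in each pool, relative to each gene's mean over the 12 pools. The 39 genes (circles) are at 0.27 to 0.52 in the WT CSC pools and at -0.41 to 0.14 in WT QSC, the cytosolic ribosomal proteins (squares) do not separate these groups, and macrophage markers stand at 1.67 in the Rptor KO CSC pool.

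At 28 days after the injury the WT CSC pool lay near WT QSC for most of the 39 genes. None was called against WT QSC in limma (0% of all genes were called), the median difference was 0.12 and 27 were positive. The pool lay above all 3 QSC pools for 13 genes (19.8% of all genes) and below them for 2 (19% of all genes). The largest positive differences were those of Nop10 (10.33 in the 28-day pool, 0.58 ± 0.22 SE), Noc3l (9.58, 0.48 ± 0.22) and Npm1 (11.52, 0.46 ± 0.27), and the largest negative ones those of Nhp2 (8.69, -0.33), Polr1c (9.69, -0.26) and Nolc1 (9.88, -0.15). Against WT CSC at 2.5 days, 3 of 39 were lower (8.38% of all genes were called) and the median was -0.44. Bop1 stood at 9.31, 0.44 times its level at 2.5 days (-1.18 ± 0.23, adjusted p = 0.0179), Nhp2 fell by 1.31 ± 0.32 on the log2 scale (adjusted p = 0.0388), and Wdr12, at 8.56, fell by 0.67 ± 0.17 (adjusted p = 0.0447). No call against WT CSC remained when any single WT CSC pool was left out. For 27 genes the 28-day pool lay below all 3 WT CSC pools (34.8% of all genes), and Nop58, Nop14 and Ltv1 stood above them, at 11.67, 10.36 and 9.65 (39.8% of all genes did). The 2 comparisons share this single pool. Endothelial markers in it were low, with a list median of -0.84 against the 12-pool means, and their part was not tested.

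The quiescent TSC1 KO cells, which lack a brake on mTORC1, had no called difference in these genes. In the TSC1 KO QSC pool none of 39 was called against WT QSC in limma (0.0143% of all genes were called). The median difference was -0.17, against 0.04 for all genes. Only 10 differences were positive. The pool lay below all 3 WT QSC pools for 15 genes (23.2% of all genes) and above them for 2 (30.3% of all genes). Bysl (8.97), Bop1 (9.68) and Rrs1 (8.23) had the largest positive differences, of 0.41, 0.23 and 0.21, the last of which turned to -0.0090 without QSC pool 2. The largest negative differences were those of Nop16 (10.12, -0.70 ± 0.26), Nhp2 (8.47, -0.55 ± 0.32) and Npm1 (10.51, -0.55 ± 0.27).

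In Rptor KO QSC none of 39 was called against WT QSC in limma (0.122% of all genes were called), with a median of -0.21 and 9 positive differences. The pool lay below all 3 WT QSC pools for 15 genes (26.5% of all genes) and above them for 1 (24.9%). Dkc1 differed most: it was at 7.78, against 8.77 ± 0.28 (SD, n = 3) in WT QSC, a difference of -0.99 ± 0.23 (SE, adjusted p = 0.172), and both arrays of the pool (7.84 and 7.72) lay below every other pool. Nop58 (10.58, -0.70) and Rrs1 (7.33, -0.69) followed. The second array of this pool differed from the first by -0.69 for Nop58 and by -1.19 for Npm1. Nop10 (10.05), Polr1a (9.43) and Gar1 (9.15) had the largest positive differences, of 0.30, 0.12 and 0.11. In the cMet KO QSC pool none was called (0% of all genes) and the median was -0.11. In it 3 genes lay below all WT QSC pools (8.54% of all genes) and 3 above them (20.3%). Its differences ran from -0.32 for Rrp9 to 0.28 for Taf1d.

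In knockout mice with an injury, most levels lay under those of WT CSC. In the Rptor KO CSC pool 38 of 39 differences from WT CSC were negative, with a median of -0.45, and 34 genes lay below all 3 WT CSC pools (38.3% of all genes) and none above them (34.5%). Dkc1 alone was called (3.9% of all genes were called in either direction): it was at 8.46, against 9.70 ± 0.11 (SD, n = 3), and fell by 1.24 ± 0.23 on the log2 scale (adjusted p = 0.0256), a call lost without any one of the WT CSC pools (adjusted p = 0.0508 to 0.0973). The 2 arrays of the Rptor KO CSC pool read 8.76 and 8.17 for Dkc1. Bop1 was at 9.60 (-0.89 ± 0.23, adjusted p = 0.0703) and Ftsj3 at 8.94 (-0.81 ± 0.34, adjusted p = 0.228). The pool lay above all WT QSC pools for 6 genes (23.4% of all genes) and below them for 5 (30.9%). Taf1d was the only gene with a positive difference (11.82, 0.08), and it was -0.71 on the probeset that lists a RefSeq mRNA. Nop14 (9.88, -0.01) and Gnl3 (10.56, -0.14) were nearest to WT CSC below it. Ubtf and Rrn3 differed by -0.70 ± 0.19 (adjusted p = 0.0725) and -0.67 ± 0.17 (adjusted p = 0.0615). Macrophage markers were high in this pool, with 8 of 9 called higher than in WT CSC and a median difference of 1.99. Their part in the lower values of the ribosome biogenesis genes was not tested.

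Against its own quiescent pool, Rptor KO CSC gave no call in limma (0.258% of all genes were called). There 32 of 39 differences were positive and the median was 0.31, against -0.04 for all genes. Dkc1 was at 7.78 and 8.46 (0.68 ± 0.28) and Noc3l at 8.52 and 9.17 (0.66 ± 0.27). Taf1d was at 10.74 and 11.82 on its brightest probeset (1.08 ± 0.23, adjusted p = 0.189) and at 9.45 and 9.59 on the one that lists a RefSeq mRNA. Rrp1b (-0.28), Polr1c (-0.22) and Nop14 (-0.17) had the largest negative differences. The response in these cells minus the WT response was not called in limma for any of 39 genes (0% of all genes). Its median was -0.25, and the difference for Bop1 was -0.79 ± 0.33 (adjusted p = 1).

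In the cMet KO CSC pool 35 of 39 differences from WT CSC were negative, with a median of -0.47, and 29 genes lay below all 3 WT CSC pools (35% of all genes). Bop1 alone was called (6.74% of all genes were called in either direction): it was at 9.48, against 10.49 ± 0.08 (SD, n = 3), and fell by 1.01 ± 0.23 on the log2 scale (adjusted p = 0.0369), which was lost without any one of the WT CSC pools (adjusted p = 0.0898 to 0.107), without the filter (0.0503) and on the second arrays alone (0.0616). Rrp9 was at 8.63, against 9.63 ± 0.24 (SD, n = 3), a difference with a SE of 0.44, and Nhp2 at 9.03 (-0.97 ± 0.32, adjusted p = 0.105), neither of them called. Nop58 (11.65, 0.85 ± 0.30), Nop14 (10.26, 0.38) and Ltv1 (9.54, 0.30) lay above all 3 WT CSC pools (36.6% of all genes did). The pool stood above all WT QSC pools for 9 genes (22.5% of all genes) and below them for 1 (18.5%). Endothelial markers were high in it, with 10 of 12 called higher than in WT CSC and a median difference of 1.77, and their part was not tested. Against cMet KO QSC no gene was called in limma (0% of all genes), 35 of 39 differences were positive and the median was 0.14, against -0.03 for all genes. Rrs1 (7.83 and 8.26), Npm1 (11.09 and 11.43) and Nop58 (11.32 and 11.65) had the largest positive ones, and Polr1c (-0.18), Gar1 (-0.17) and Nop10 (-0.02) the most negative. The response minus the WT response was called for none of 39 genes (0.158% of all genes were called). Its median was -0.42, with -0.89 ± 0.33 for Bop1 (adjusted p = 0.403 in limma).

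**Figure D5:**
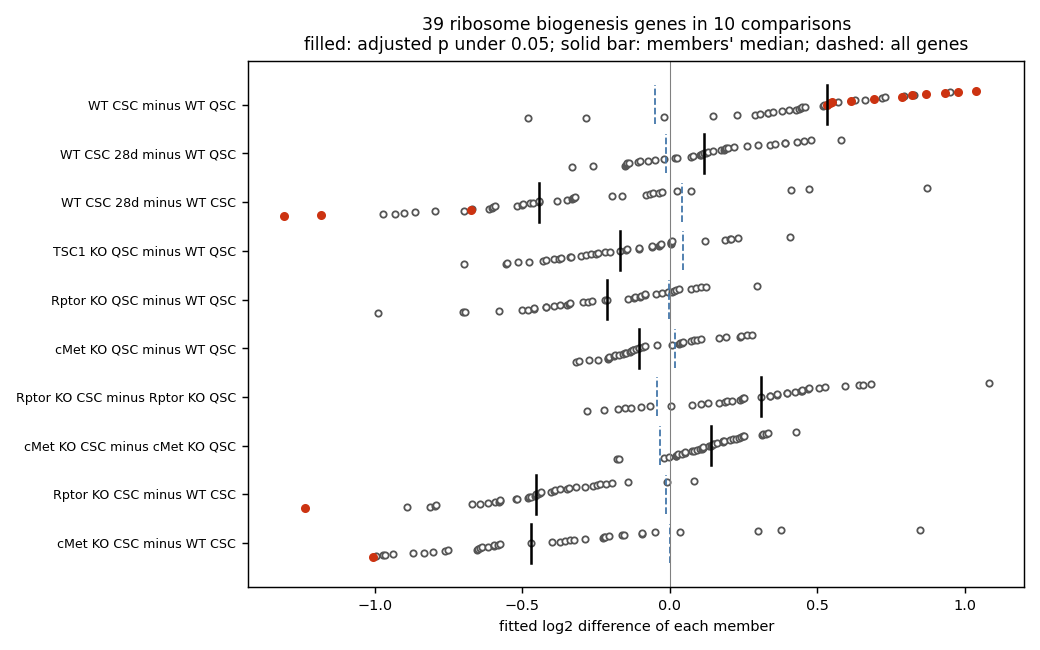
Fitted log2 differences of the 39 genes in 10 comparisons, with 1 row of points a comparison; filled points passed the adjusted threshold, solid bars are the medians of the 39 and dashed bars those of all genes tested. Medians are 0.53 in WT CSC minus WT QSC, -0.44 to -0.47 in the 3 single CSC pools minus WT CSC, and -0.21 to -0.11 in the 3 knockout QSC pools minus WT QSC; comparisons share the WT pools.

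The 12 genes with the smallest p in limma were picked for their difference between WT CSC and WT QSC. That choice largely builds in high WT CSC values. Like most of these genes, Bop1, Dkc1 and Polr1e had their highest levels in the 3 WT CSC pools. For Bop1 the order below them was WT QSC pool 3 (9.74), TSC1 KO QSC (9.68), Rptor KO CSC (9.60) and cMet KO CSC (9.48), and the other 5 pools lay between 9.16 and 9.45, so that neighbours among these 9 pools differ by less than the SD of WT QSC (0.29). For Dkc1 the order was the 28-day pool (9.03), WT QSC pool 1 (9.01), TSC1 KO QSC (8.96), cMet KO CSC (8.90), WT QSC pool 3 (8.83), cMet KO QSC (8.68), WT QSC pool 2 (8.47) and Rptor KO CSC (8.46), with Rptor KO QSC at 7.78 below all of them. For 28 of the 39 genes the highest of the 12 pools was WT CSC pool 2. The lowest was WT QSC pool 2 for 14 genes, Rptor KO QSC for 13 and TSC1 KO QSC for 8. The same counts were not made for all genes, so no trait of the 39 can be read from them. Among the WT QSC pools alone, pool 2 was the lowest for 50.4% of all genes.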

How the data were processed

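The authors deposited log2 signals of probesets, made with RMA in Expression Console (Affymetrix) according to the submitters' processing notes. Program version and genome build are not stated in the sources used here. Of 35556 probesets, the platform table gives 21789 exactly 1 symbol, and a gene was read from its brightest such probeset. Noc2l had none and was left out. Arrays of a pool are technical replicates and were averaged. Genes whose mean over the 12 pools was under the 30th percentile (6.45) were dropped. A model with 8 group means was fitted in limma 3.58.1 (R 4.3.3) to 13956 genes, with 12 contrasts and Benjamini-Hochberg adjustment. The spread comes from the 6 WT pools alone (4 residual degrees of freedom), and their number limits the precision. The labels call the 3 WT pools of a state biological replicates. The test was tried on simulated data.

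Genes to name were the 12 with the smallest p in WT CSC against WT QSC, the smallest p of each role, and the polymerase I genes. Further ones were the 3 largest rises and 3 largest falls in each other contrast, and the regulators Myc, Ubtf and Rrn3. Of the pathway lists they were the 3 called genes with the smallest p in each direction. Not all of these are printed. For cMet KO QSC against WT QSC the Results name only Rrp9 and Taf1d, and for the responses minus the WT response only Bop1. Some other contrasts are also incomplete. Called pathway genes are given in part, for WT CSC against WT QSC only. The genes, lists and tests were chosen with earlier results of these data known. There were 20 alternatives. Values were normalized again by quantiles or centred on array medians. The filter was dropped or set at the 50th percentile, and probesets of a gene were averaged. Trend and robust options of eBayes were used. Arrays entered singly, with pools as random blocks, or only first or only second arrays were kept. Each WT pool was left out, the replicate number was a block, and the WT pools were fitted alone. Chosen after seeing the data were the brightest or faintest probeset that lists a RefSeq mRNA, and the loss of the 3 least alike second arrays. Sequences are RefSeq's. Figures were drawn with matplotlib 3.10.9.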

Additional observations from a re-analysis of the deposited data

How the results depend on the processing

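In WT CSC against WT QSC 11 genes were called (18% of all genes). The count was 23 with all arrays and the pool as a random block (25.8% of all genes) and 7 on the second arrays alone (12.2%). It was 4 to 19 with 1 WT pool left out (8.56% to 18.8% of all genes). Each other alternative gave 9 to 13 (10.7% to 21.8% of all genes). With the replicate number as a block (replicate block, over the 6 WT pools) 13 were called (20% of all genes). Deviations of same-numbered pools correlated at 0.32 for replicate 1 and at -0.03 for replicates 2 and 3. The labels give only the number, and whether the pools of replicate 1 share a preparation was not tested. WT CSC at 28 days against WT CSC gave 3 calls, 1 without the filter, 6 with the random block and 0 to 8 with a WT pool left out. Rptor KO CSC against WT CSC gave 1 call, 3 with the random block, 2 on the first arrays and 0 to 3 in leave-outs. cMet KO CSC against WT CSC gave 1 call, 0 without the filter or on the second arrays, 4 on the first arrays, 12 with the random block and 0 to 9 in leave-outs. The random block also gave 1 call, against 0, in Rptor KO QSC against WT QSC and in Rptor KO CSC against its QSC. The causes were not tested. The median difference of the 39 genes moved by less than the SD of the 3 WT QSC pool medians (0.275) under every alternative in the 12 contrasts. Some medians are themselves smaller than 0.275, so for them this bound shows no stability. They are 0.12 (28 days against WT QSC), -0.21 to -0.11 (knockout against WT QSC), 0.14 (cMet KO CSC against its QSC) and -0.25 (Rptor KO response minus the WT response). Of 1968 values of named genes under alternatives, 1848 kept direction and side of the threshold, 56 lost the call, 43 gained one and 21 turned sign. The 1848 include values that could not move. These come from the WT pools fitted alone, from probeset choices for genes with 1 probeset, and from WT leave-outs in a knockout CSC against its own QSC. None of the 21 that turned sign was called. Ltv1 in WT CSC against WT QSC turned to 0.015 with centring, 0.023 on first arrays and 0.014 without the 3 second arrays, and ran from -0.12 to 0.10 in leave-outs. Leave-outs ran from -0.0090 to 0.43 for Rrs1 (TSC1 KO QSC against WT QSC), -0.062 to 0.24 for Polr1a and -0.16 to 0.43 for Gar1 (Rptor KO QSC against WT QSC), and -0.69 to 0.022 for Rrp9 and -0.63 to 0.093 for Rrp12 (cMet KO QSC against WT QSC). Nop10 in cMet KO CSC against its QSC was 0.027 on second arrays. In Rptor KO CSC against WT CSC, Taf1d was -0.60 as the mean of its probesets and -0.71 on the probeset with a RefSeq mRNA, brightest or faintest (-0.076 and -0.13 in the response minus the WT response), and Nop14 was 0.11 with quantile normalization, 0.014 with the random block and -0.17 to 0.14 in leave-outs. In responses minus the WT response, leave-outs ran from -0.0083 to 0.21 for Noc3l (Rptor) and -0.010 to 0.21 for Ltv1 (cMet). With 1 pool in 6 of the 8 groups, the number of pools limits what can be detected.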
